A study of Mus musculus with 179 samples.

Results

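Spp1-high and Spp1-low cells are the 2 ends of a ranking of epithelial organoid cells by a single transcript, Spp1, which encodes the secreted phosphoprotein osteopontin. The cells were chosen by their measured Spp1 level. Of the single cells measured, 18 with fewer than 40000 unique molecular identifiers (UMIs, tags that count RNA molecules) and 6 rich in fibroblast transcripts were left out. Of the cells kept, the 39 with the highest Spp1 level were set against the 39 with the lowest, and the 77 between them were kept aside. All are wild-type C57BL6 mouse cells labelled as acinar, the enzyme-secreting cell of the exocrine pancreas. They were isolated by digesting the tissue and by a density gradient, and grown for 9 days as organoids in Matrigel. RNA was counted by Smart-seq3, a plate-based method, alongside DNA methylation and accessibility readouts that are not analysed here. The labels name no treatment, animal or culture that would separate them, so single cells cannot stand as replicates and every difference is a description with no test. Intervals are exact 95% intervals and cover counting error only.

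Osteopontin is an acidic, secreted glycoprotein of the SIBLING family. It binds integrins through an RGD sequence and the hyaluronan receptor CD44, and proteases such as thrombin and matrix metalloproteinases cut it into active fragments. In the healthy pancreas it is a transcript of duct cells. Acinar cells placed in culture or injured lose digestive enzyme transcripts and take up duct transcripts, a change called acinar-to-ductal metaplasia.

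Spp1 itself was the value that chose the cells. Its level, scaled to 1000000 UMIs per cell (CPM), had a lowest value of 1841, a median of 2592 and a highest value of 10550 in the Spp1-high cells, against 13.1, 427 and 695 in the Spp1-low cells. Pooled over the cells of a group it stood at 3295 CPM (3248 to 3342) in Spp1-high cells and 388 CPM in Spp1-low cells. The cut points fell in a continuous range. The 2 cells just inside the Spp1-high group had 1841 and 1915 CPM and the 2 just outside had 1833 and 1793, while 695 and 693 CPM lay just inside the Spp1-low group and 713 and 724 just outside. The 6 fibroblast-rich cells left out reached 18552 CPM with a median of 4758, so a high Spp1 level was not confined to epithelial cells.

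**Figure D1:**
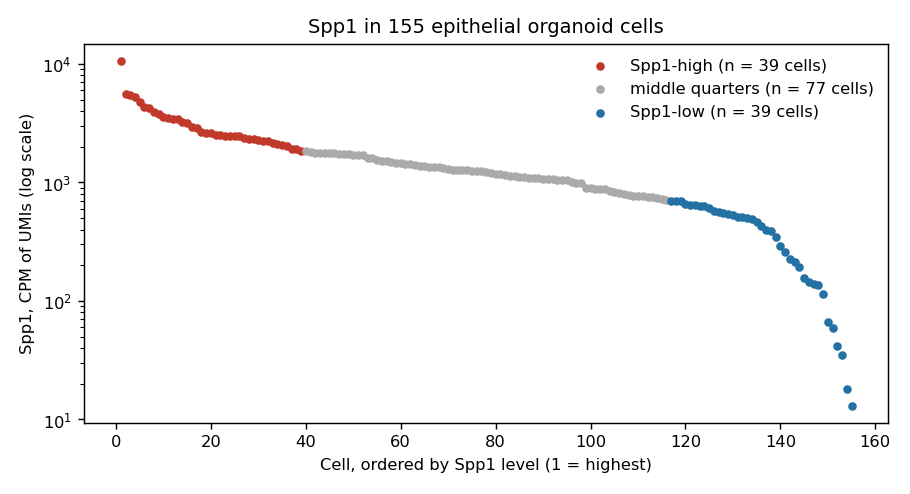
Spp1 level of each epithelial cell kept (vertical axis, CPM, log scale) in order of that level (horizontal axis, 1 is the highest). Red points are the 39 Spp1-high cells, grey the 77 cells between them and blue the 39 Spp1-low cells; no gap separates the groups, and the steepest fall is within the Spp1-low cells, down to 13.1 CPM.

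The 300-base windows from 250 bases before to 50 after the start of the gene are shown for Spp1, for Lcn2 and C3, which were higher with it, and for Krt7, which was lower. They are RefSeq sequences of build GRCm38.p6, read 5′ to 3′ along the gene's own strand. Each lies around the start that RefSeq gives, which for Lcn2 and Krt7 is inside the wider gene span printed with their values. Capitals mark the matches, on either strand, to any of 4 motifs, TGANTCA (AP-1), ACCACA (RUNX), TTGCNNAA (C/EBP) and GGG and TTTCC with 2 bases between (NF-kB). For Spp1 the table lists 2 windows, and the one nearer the annotated start is shown.
Spp1, chr5:104434861-104435160, plus strand: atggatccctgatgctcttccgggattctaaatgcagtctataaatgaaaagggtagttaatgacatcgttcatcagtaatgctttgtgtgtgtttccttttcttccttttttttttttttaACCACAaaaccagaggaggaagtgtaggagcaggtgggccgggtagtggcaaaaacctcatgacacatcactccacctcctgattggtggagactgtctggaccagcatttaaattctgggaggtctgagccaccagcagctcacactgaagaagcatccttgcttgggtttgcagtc
Lcn2, chr2:32387690-32387989, minus strand: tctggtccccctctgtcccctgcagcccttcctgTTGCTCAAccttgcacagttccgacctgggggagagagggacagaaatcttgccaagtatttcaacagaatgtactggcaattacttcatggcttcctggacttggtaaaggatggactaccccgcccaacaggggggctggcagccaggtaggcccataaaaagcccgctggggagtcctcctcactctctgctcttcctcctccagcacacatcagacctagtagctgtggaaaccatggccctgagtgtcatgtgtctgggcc
C3, chr17:57228087-57228386, minus strand: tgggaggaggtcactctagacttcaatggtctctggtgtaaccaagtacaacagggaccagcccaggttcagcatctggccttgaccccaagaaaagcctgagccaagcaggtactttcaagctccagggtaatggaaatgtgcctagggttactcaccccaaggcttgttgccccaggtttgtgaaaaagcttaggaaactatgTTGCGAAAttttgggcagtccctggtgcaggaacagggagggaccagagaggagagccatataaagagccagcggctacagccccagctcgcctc
Krt7, chr15:101412153-101412452, plus strand: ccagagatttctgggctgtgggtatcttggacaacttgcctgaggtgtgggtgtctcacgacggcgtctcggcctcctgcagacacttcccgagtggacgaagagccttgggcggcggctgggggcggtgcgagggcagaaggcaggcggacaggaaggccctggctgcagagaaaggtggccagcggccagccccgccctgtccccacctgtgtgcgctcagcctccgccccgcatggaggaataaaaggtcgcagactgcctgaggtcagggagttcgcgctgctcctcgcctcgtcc
The Spp1 window held 1 RUNX match, whose first base is at -128 from the start, and the Lcn2 and C3 windows held 1 C/EBP match each, at -216 and -45. The Krt7 window held none of the 4 motifs. Over all 32851 windows in the table, 16.8% held the RUNX letters, 10.8% the C/EBP letters, 7.81% the AP-1 letters and 1.63% the NF-kB letters. A match is a description of the letters and does not show binding.

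The cells were epithelial by Epcam, an epithelial adhesion protein, whose lowest level was 240 CPM in Spp1-high and 94.5 CPM in Spp1-low cells. The digestive enzymes that define acinar cells were low in most cells of both groups, with a median of 137.5 CPM for 28 genes together in Spp1-high cells and 147.3 CPM in Spp1-low cells. Depth had a median of 142428 UMIs (range 42594 to 267374) in Spp1-high cells and 173522 (47789 to 309269) in Spp1-low cells, and the medians of genes detected were 11431 and 11452. The median mitochondrial share was 1.08% in Spp1-high and 0.932% in Spp1-low cells, and the highest was 1.54% and 4.36%. The lowest share of UMIs in ribosomal protein genes was 7.57% in Spp1-high cells and 2.001% in Spp1-low cells. Of the cells kept, none of the Spp1-high, 4 of the Spp1-low and 2 of the others were under 5% ribosomal. Leaving them out and ranking the rest again, a check added after seeing the data, set 38 cells against 38. It gave 1021 genes higher and 778 lower. The numbers in the cells' titles were less even, since 13 of 39 Spp1-high and 22 of 39 Spp1-low cells were numbered up to 96. What those numbers stand for is not given. Each comparison was therefore repeated with cells ranked within the numbers up to 96 and, separately, from 97. Of 4 cells rich in digestive enzyme transcripts, none was Spp1-high and 3 were Spp1-low.

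Among 10286 other genes with at least 10 CPM over the cells kept, 984 were at least 1.5-fold higher in Spp1-high cells (9.57% of the genes) and 881 at least 1.5-fold lower (8.57%), counting only genes that stayed past the threshold when the cell highest for that gene was left out of each group. These shares are the background for every count of list members below, and a count near them is no result about the list. The median log2 ratio of all genes compared was 0.01. In no gene did the cells of the groups separate fully, in either direction. As a measure of the spread, each Spp1-high cell was paired with each Spp1-low cell, which gives 1521 pairs. The Spp1-high cell had the higher level in at least 70% of pairs for 556 genes, of which 447 were also higher by the fold rule, and in at most 30% for 268 genes, of which 222 were also lower by it.

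**Figure D2:**
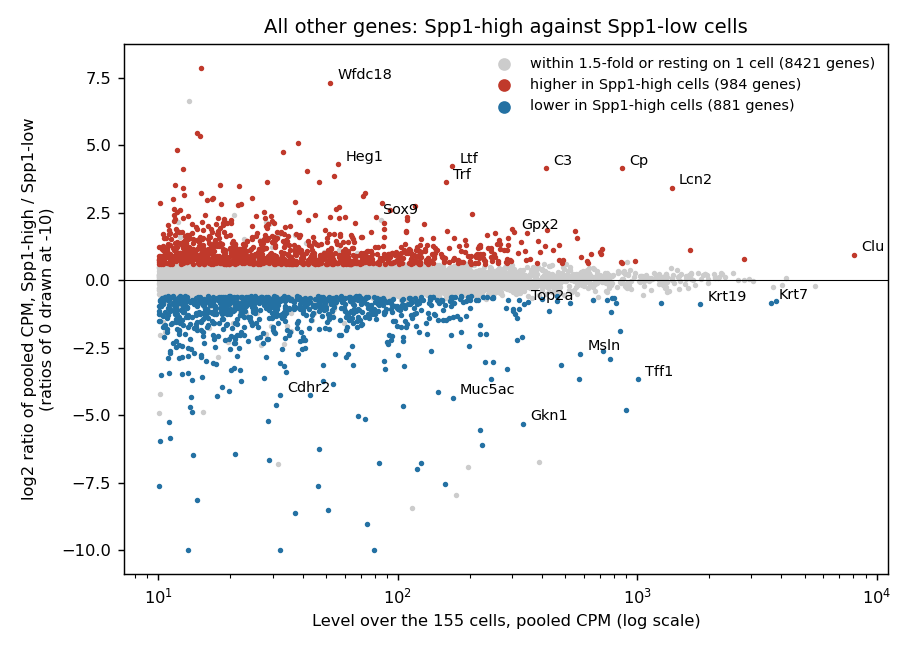
Each point is 1 of the 10286 genes compared, placed by its pooled level over the cells kept (horizontal, CPM, log scale) and its log2 ratio of pooled CPM, Spp1-high over Spp1-low (vertical). Red points are the 984 genes higher and blue the 881 lower in Spp1-high cells; Cp, C3 and Lcn2 stand above other genes of their level, and Tff1, Msln and Gkn1 below, and ratios of 0 are drawn at the lower edge.

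The clearest difference was in secreted innate-defence and acute-phase transcripts, most of which were higher in Spp1-high cells. Of 14 genes compared from a list of acute-phase proteins and chemokines, 11 were higher, 1 was lower and 2 were neither, with a median log2 ratio of 1.17. The list held 6986 CPM in Spp1-high cells and 2257 CPM in Spp1-low cells, a ratio of 3.10 (3.04 to 3.15). It was higher in the Spp1-high cell of 90.4% of pairs.

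Lcn2 (chr2:32384633-32388252) encodes lipocalin-2, which withholds iron from bacteria by binding their siderophores. Its lowest, median and highest levels were 0, 2864 and 7406 CPM in Spp1-high cells, against 3.92, 37.02 and 4627 CPM in Spp1-low cells. The ranges overlapped, and the Spp1-high cell had more in 92.5% of pairs. The pooled ratio was 10.7 (10.1 to 11.2). A single Spp1-low cell, Acinar104, held 31.4% of that group's Lcn2 UMIs, and the ratio without each group's highest cell was 14.7. Ranked within title numbers, the ratio was 67.4 up to 96 and 5.82 from 97.

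Cp (chr3:19957054-20009145), ceruloplasmin, a copper-carrying ferroxidase of plasma, had the highest rank correlation with Spp1 of any gene with at least 20 CPM (Spearman rank correlation 0.67 over all cells kept, a description in which both genes share each cell's library and depth). It ran from 20.7 through a median of 1967 to 7879 CPM in Spp1-high cells and from 0 through 14.5 to 1749 CPM in Spp1-low cells. Every Spp1-high cell thus had some, and 94.9% of pairs were higher in the Spp1-high cell. The pooled ratio was 17.7 (16.5 to 19.1), and 90.98 and 11.2 within the 2 ranges of title numbers, lower numbers first.

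C3 (chr17:57203970-57228136), the central complement component, had levels of 0, 776 and 2793 CPM in Spp1-high cells, against 0, 19.5 and 689 CPM in Spp1-low cells (lowest, median, highest). Its ratio was 17.6 (15.8 to 19.7), with 50.3 in cells numbered up to 96 and 9.62 from 97. Ltf, lactoferrin, an iron-binding milk and granule protein, had medians of 129.2 and 6.51 CPM in Spp1-high and Spp1-low cells and a ratio of 18.6, with 57.3 up to 96 and 13.8 from 97. For Trf, transferrin, the plasma iron carrier, the medians were 225 CPM in Spp1-high cells and 0 in Spp1-low cells. Its ratio was 12.3, and 18.5 without the highest cells, since Acinar30 held 25.4% of the Spp1-high UMIs and Acinar104 held 48.7% of the Spp1-low UMIs. It was 103.5 in cells numbered up to 96 and 7.07 from 97, and other settings gave 5.55 to 473. The same Spp1-low cell, Acinar104, was also the highest of its group for Cp, C3 and Ltf, and its Spp1 level was 629 CPM.

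Other secreted defence proteins followed. Slpi, an inhibitor of neutrophil proteases, was 14.4-fold higher (10.7 to 19.7), and Wfdc18, a small whey acidic protein family member, was 159.3-fold higher (83.6 to 349) with a median of 20.8 CPM in Spp1-high cells and 0 in Spp1-low cells. Its highest single values were 1647 CPM in Spp1-high and 34.4 CPM in Spp1-low cells. The size of this ratio was not stable, since it was 597.4 in cells numbered up to 96 and 68.6 from 97. It was 14.9 when the cells under 5% ribosomal were left out and the rest ranked again. The lowest value in any setting tried was 11.8. Pigr, the receptor that carries IgA across epithelia, was 3.38-fold higher, although Acinar146 held 19.4% of the Spp1-high UMIs and Acinar68 held 38.5% of the Spp1-low UMIs.

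Among chemokines and inflammatory signals, Cxcl1, Cxcl2 and Cxcl5, which attract neutrophils, were 2.46-, 7.17- and 2.05-fold higher. Csf3, the granulocyte colony-stimulating factor, was 11.3-fold higher with a median of 0 in both groups. Acinar176 was the highest Spp1-high cell for all 4 of these, and it held 19.7% of the Cxcl2 UMIs and 22.5% of the Csf3 UMIs of its group. In Spp1-low cells Acinar74 held 46.6% of the Cxcl2 UMIs and 58.3% of the Csf3 UMIs. The ratios without the highest cells were 10.5 for Cxcl2 and 20.5 for Csf3. Ccl20, which attracts dendritic cells and lymphocytes, was the 1 member that was lower, at a ratio of 0.382. Acinar76 held 49.3% of its Spp1-low UMIs, the Spp1-high cell was higher in 49.1% of pairs, and within the title numbers the ratio was 2.44 up to 96 and 1.26 from 97, the other direction. The adhesion receptors Icam1 and Vcam1, which bind leukocyte integrins, were 3.48- and 12.3-fold higher.

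Feedback and regulatory genes of these pathways were also among the higher genes. Socs2, a suppressor of cytokine signalling, had levels of 0, 71.3 and 385 CPM in Spp1-high cells, against 0, 0 and 48.8 CPM in Spp1-low cells, a ratio of 16.4 (12.03 to 22.8). Tnfaip3, an inhibitor of NF-kB, was 1.77-fold higher. Cd14, a lipopolysaccharide co-receptor, had medians of 730 and 262 CPM in Spp1-high and Spp1-low cells, a ratio of 2.97 (2.82 to 3.13), and 88.7% of pairs. It is usually listed for macrophages. Of the 10 members of that list with an entry, 3 (Ptprc, Fcer1g and Cd79a) had no UMI in any Spp1-high cell. The other members had at least 1 UMI there, and Cd79a had none in Spp1-low cells either. The interferon and antigen presentation list was mixed, with 6 of 12 genes higher and 1 lower. Ifitm3, an antiviral membrane protein, was 34.3-fold higher (20.6 to 61.8), with 87.1 in cells numbered up to 96, 16.2 from 97 and 6.71 at the lowest in any setting. Psmb8, an immunoproteasome subunit, was 5.32-fold higher. B2m, the light chain of MHC class I, was 1.55-fold higher, whereas the heavy chains H2-D1 and H2-K1 stood at ratios of 0.918 and 0.844 and were neither.

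**Figure D3:**
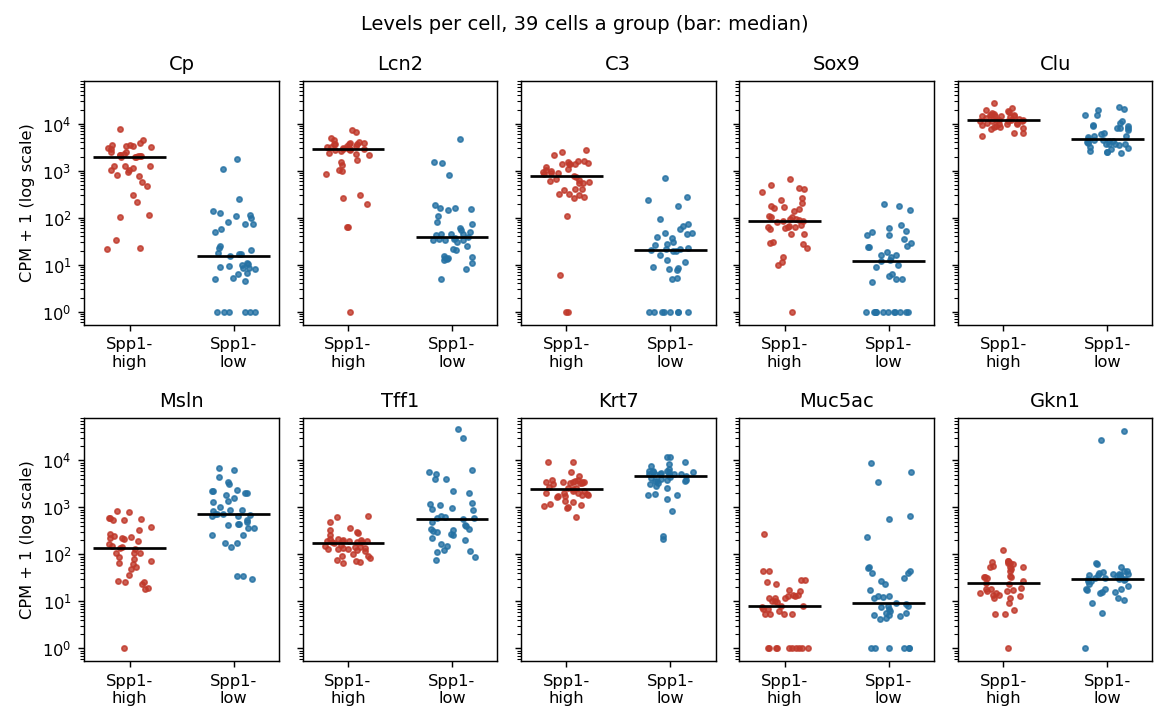
Level in each cell (vertical axis, CPM plus 1, log scale) for 10 genes, with the 39 Spp1-high cells on the left (red) and the 39 Spp1-low cells on the right (blue) of each panel; black bars are medians. Cp, Lcn2, C3, Sox9 and Clu sit higher in most Spp1-high cells, Msln, Tff1 and Krt7 sit lower, and for Muc5ac and Gkn1 the medians nearly coincide (7.08 and 23.3 CPM in Spp1-high cells, 8.44 and 29.5 CPM in Spp1-low cells) while a few Spp1-low cells reach far higher.

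Duct genes did not move as 1 group. Of 16 compared, 8 were higher in Spp1-high cells, 2 were lower and 6 were neither. Over all genes compared, 9.57% were higher and 8.57% lower. The list as a whole held 9448 CPM in Spp1-high cells and 11965 CPM in Spp1-low cells, a ratio of 0.790, while the median log2 ratio of its members was 0.53. The pooled ratio and the median of the members thus differed in direction.

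Sox9 (chr11:112782224-112787760), the transcription factor of duct cells and pancreatic progenitors, had levels of 0, 82.3 and 658 CPM in Spp1-high cells, against 0, 11.1 and 197 CPM in Spp1-low cells. The ratio was 5.04 (4.31 to 5.93), with 85.9% of pairs. Within the title numbers it was 5.58 up to 96 and 2.47 from 97. Prox1, a homeobox factor of pancreatic development, was 4.02-fold higher. Pkhd1, fibrocystin of the primary cilium, was barely past the threshold, with medians of 84.6 and 72.02 CPM in Spp1-high and Spp1-low cells.

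Of 13 genes compared from a list of bicarbonate, chloride and water transport, 4 were higher, 2 were lower and 7 were neither. Over all genes compared, 18.1% passed in either direction. The list stood at a ratio of 1.23. Cftr, the chloride and bicarbonate channel of the duct, had medians of 22.4 and 3.93 CPM in Spp1-high and Spp1-low cells and a ratio of 3.03 (2.41 to 3.84). Dcdc2a, a protein of the primary cilium, was 4.73-fold higher. Slc4a4 and Slc12a2, the basolateral sodium bicarbonate and sodium-potassium-chloride cotransporters, were 1.72- and 2.10-fold higher, whereas Ano1, a calcium-activated chloride channel, was lower at 0.586. Prom1 and Epcam, membrane glycoproteins of simple epithelia, were 2.10- and 1.68-fold higher. The tight junction genes Cldn3 and Cldn4 stood at 1.93 and 1.81. They were the 2 higher genes of 14 compared from a simple epithelium list, of which 1 was lower and 11 were neither. This is near the 18.1% of all genes compared that passed in either direction, so the count is no result about the list. The list stood at a ratio of 0.945.

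The keratins that are most used to mark ducts went the other way. Krt7 (chr15:101411043-101430313), a type II keratin, had levels of 637, 2520 and 9307 CPM in Spp1-high cells, against 217, 4605 and 12101 CPM in Spp1-low cells. Its ratio was 0.559 (0.548 to 0.570), with the Spp1-high cell higher in 24.7% of pairs. Krt19, a type I keratin, had medians of 1091 CPM in Spp1-high cells and 2466 CPM in Spp1-low cells and a ratio of 0.539. In cells numbered from 97 the ratios were 0.750 for Krt7 and 0.784 for Krt19, short of the 1.5-fold mark, against 0.399 and 0.428 in cells numbered up to 96. Krt8 and Krt18, the keratins of all simple epithelia, stood at ratios of 0.860 and 0.995 and were neither. Ezr, ezrin, which ties apical membrane to actin, was lower at 0.633.

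For osteopontin's own partners, 3 of 6 receptor genes compared were higher and none was lower, against 9.57% and 8.57% of all genes compared. Cd44 had levels of 82.3, 567 and 1615 CPM in Spp1-high cells, against 0, 203 and 1141 CPM in Spp1-low cells. Its ratio was 2.18 (2.07 to 2.30), with 81.3% of pairs, and it was above 1.5 within both ranges of title numbers (1.62 up to 96 and 2.29 from 97). The integrin subunits Itgav and Itgb5, which pair as an osteopontin receptor, were 1.89- and 2.14-fold higher by pooled counts. Both were less even. Itgav stood at a ratio of 0.953 in cells numbered from 97, and for Itgb5 the cell Acinar58 held 37.8% of the Spp1-high UMIs, so the ratio was 1.51 without the highest cells. Itgb1, the shared beta subunit, was neither, at a ratio of 1.08.

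Of 5 genes compared that modify or cut osteopontin, 1 was higher, against 9.57% of all genes compared. So small a count is no result about the list. Mmp7, matrilysin, a metalloproteinase that cleaves osteopontin, had medians of 1943 and 783 CPM in Spp1-high and Spp1-low cells and a ratio of 2.19 (2.12 to 2.25). Fam20c, the kinase that phosphorylates it, stood at 1.42, and Tgm2, the transglutaminase that crosslinks it, at 1.16. The other SIBLING genes with an entry, Ibsp, Dmp1 and Dspp, had no UMI in either group, which allows up to 0.522 CPM in Spp1-high and 0.427 CPM in Spp1-low cells.

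Of 18 genes for transcription factors reported to act on the Spp1 promoter, 6 were higher and none was lower. Over all genes compared, 9.57% were higher. All 6 belong to the AP-1 or ETS families. Jun, a subunit of AP-1, had medians of 248 and 118.9 CPM in Spp1-high and Spp1-low cells and a ratio of 2.45 (2.27 to 2.64). Its AP-1 partners Fos, Fosb and Junb were 1.62-, 2.50- and 1.64-fold higher, and Fosl2 was 1.77-fold higher. Etv5, an ETS factor, was 2.03-fold higher, with ratios of 3.46 and 1.18 in the lower and higher title numbers. Runx1 and Runx2 stood at 1.07 and 1.34 and were neither. The AP-1 genes overlap with the immediate early list, genes induced within minutes of a stimulus. Of 14 compared there, 12 were higher and none was lower, with a median log2 ratio of 1.04. Ier3, an early response gene that limits cell death, led in pairs at 81.7% and was 2.75-fold higher (2.60 to 2.91).

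Beyond the lists, several genes followed Spp1 closely. Tmem176b and Tmem176a, neighbouring genes for membrane proteins of intracellular compartments, had rank correlations of 0.65 and 0.63 with Spp1, and Rhoj, a small GTPase, 0.61. Tmem176b had levels of 93.2, 861 and 1860 CPM in Spp1-high cells, against 0, 233 and 1068 CPM in Spp1-low cells, a ratio of 3.49 (3.31 to 3.69). Gpx2, a glutathione peroxidase of gut and other epithelia, was 3.44-fold higher with 89.3% of pairs, although 6 of the 19 NRF2 and glutathione genes compared were lower and it alone was higher. Heg1, a membrane protein with EGF-like repeats, had medians of 66.5 CPM in Spp1-high cells and 0 in Spp1-low cells and a ratio of 19.6 (15 to 26.1). Sema5a, a semaphorin, was 26.7-fold higher. Timp3, a matrix-bound metalloproteinase inhibitor, was 2.67-fold higher by pooled counts and 17.1-fold without the highest cells, because the Spp1-low cell Acinar74 held 88.3% of that group's UMIs.

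Clu (chr14:65968483-65981547), clusterin, a secreted chaperone that is raised in injured epithelia, had levels of 5498, 12122.5 and 27648 CPM in Spp1-high cells, against 2397, 4846 and 23191 CPM in Spp1-low cells. The ratio was 1.91 (1.89 to 1.94), with 83.6% of pairs. The wider injury and metaplasia list was divided, with 5 of 19 genes higher and 5 lower. Besides Clu, the higher members were Lcn2, Cd44, Mmp7 and Tm4sf1, a surface protein of migrating cells, at 3.00. The lower members were Msln, Sprr1a, Il33, Lgals3 and S100a6.

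Msln (chr17:25748613-25754378), mesothelin, a surface protein of mesothelium and of pancreatic tumours, was the most evenly lower of these. Its levels were 0, 134.9 and 851 CPM in Spp1-high cells, against 29.1, 713 and 7056 CPM in Spp1-low cells, a ratio of 0.151 (0.142 to 0.160). The Spp1-high cell was higher in 15.1% of pairs, and the ratios within title numbers were 0.106 and 0.159. Sprr1a, a cornified envelope protein that is raised in stressed epithelia, had medians of 117.4 and 938 CPM in Spp1-high and Spp1-low cells and a ratio of 0.164. Il33, an alarmin cytokine, and Lgals3, galectin-3, stood at 0.243 and 0.437. F3, tissue factor, the trigger of clotting, was lower at 0.251.

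The genes whose rank was most opposed to Spp1 were Mcu, the pore of the mitochondrial calcium uniporter, with a rank correlation of -0.53, followed by Rundc1, Cwh43, Msln and Cdhr2. Mcu had levels of 10.9, 182.5 and 439 CPM in Spp1-high cells, against 39.4, 392.2 and 1316 CPM in Spp1-low cells. Its ratio was 0.494 (0.460 to 0.529), and it kept a similar value within the title numbers (0.457 and 0.595). Cdhr2, a cadherin of brush-border microvilli, had medians of 0 in Spp1-high cells and 16.6 CPM in Spp1-low cells and a ratio of 0.0517. Capn13, a calpain protease, had medians of 0 in Spp1-high and 29 CPM in Spp1-low cells and a ratio of 0.0403, which makes it 24.8-fold lower in Spp1-high cells. Sytl2, a synaptotagmin-like protein of secretory granules, had medians of 0 and 47.0 CPM in Spp1-high and Spp1-low cells. Its ratio was 0.170, and 0.070 without the highest cells, because Acinar164 held 64.4% of the Spp1-high UMIs. Ptprn2, a protein of dense-core vesicles, stood at 0.111, and at 0.0682 without the highest cells, with Acinar95 holding 66% of the Spp1-high UMIs.

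Gastric pit and mucous transcripts were lower, for the most part through a few Spp1-low cells. Of 12 genes compared, 9 were lower and none was higher, against 8.57% of all genes compared that were lower. Members may have passed the 10 CPM filter only through a few cells rich in these transcripts. The count is therefore no result about the members. The list held 1816 CPM in Spp1-high cells and 8125 CPM in Spp1-low cells. Its median over cells was 1274 CPM in Spp1-high and 3075 CPM in Spp1-low cells, a smaller gap. Cells with more than 10000 CPM of the list numbered 1 of 39 among Spp1-high, 6 of 39 among Spp1-low and 7 of 77 among the middle cells. When all such cells were left out and the rest ranked again, a comparison added after the data had been seen, the ratio of the list was 0.472 against 0.224 with them.

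Tff1, a trefoil peptide of gastric pit cells, was lower across many cells. It had levels of 65.6, 174.4 and 646 CPM in Spp1-high cells, against 75.8, 553 and 47145 CPM in Spp1-low cells, and the Spp1-high cell was higher in 17.9% of pairs. Vsig1, a junction protein of stomach epithelium, behaved likewise, with medians of 0 in Spp1-high and 22.7 CPM in Spp1-low cells. Gkn1 and Muc5ac did not. Gkn1, gastrokine 1, was 39.8-fold lower by pooled UMIs, but its medians were 23.3 and 29.5 CPM in Spp1-high and Spp1-low cells, and the Spp1-high cell was higher in 47.2% of pairs. Without the gastric-rich cells its ratio was 1.22. Muc5ac, the gel-forming mucin of the stomach surface, stood at 0.0487, and at 2.78 in cells numbered up to 96. Scgb3a1, a secretoglobin, stood at 0.0266, at 0.0116 without the highest cells (Acinar95 held 75% of its few Spp1-high UMIs and Acinar104 held 42.9% of the Spp1-low UMIs), and at 2.92 in cells numbered up to 96. Clca1 and Mucl3, of goblet and mucous cells, had medians of 5.18 and 7.497 CPM in Spp1-high and 3.92 and 8.62 CPM in Spp1-low cells. Prl2c2 and Prl2c3, near-identical prolactin family genes between which reads may be split, were also among the 15 lowest, at 0.0572 and 0.0526. Acinar155 held 42.7% of the Spp1-low UMIs of Prl2c2, and Acinar81 held 34.6% of those of Prl2c3.

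Digestive enzyme transcripts, the defining product of acinar cells, were lower through a few cells. Of 18 enzyme genes compared, 13 were lower in Spp1-high cells, against 8.57% of all genes compared. Members may have passed the 10 CPM filter only through the enzyme-rich cells, of which none was Spp1-high and 3 were Spp1-low. The count is therefore no result about the members. The list held 160 CPM in Spp1-high cells and 8742 CPM in Spp1-low cells, yet the medians over cells were 137.5 CPM in Spp1-high and 147.3 CPM in Spp1-low cells. The Spp1-low cell Acinar52 alone had 312142 CPM. Without the enzyme-rich cells the Spp1-low group held 475 CPM. Zg16, a zymogen granule protein, stood at 0.0115, and at 0.0494 without the highest cells, since Acinar98 held 81.4% of the Spp1-low UMIs. Klk1, a kallikrein, had no UMI in Spp1-high cells, and 99.6% of its Spp1-low UMIs came from Acinar52. Ptf1a and Rbpjl, transcription factors that drive enzyme genes, had no UMI in any Spp1-high cell. Both were under the 10 CPM filter and were not compared. The list of 7 acinar transcription factors stood at a ratio of 0.942, with the Spp1-high cell higher in 47.9% of pairs. Xbp1 and Nr5a2, which also act in acinar cells, were 1.74- and 1.57-fold higher, whereas Mecom and Gata4 were lower at 0.267 and 0.200.

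**Figure D4:**
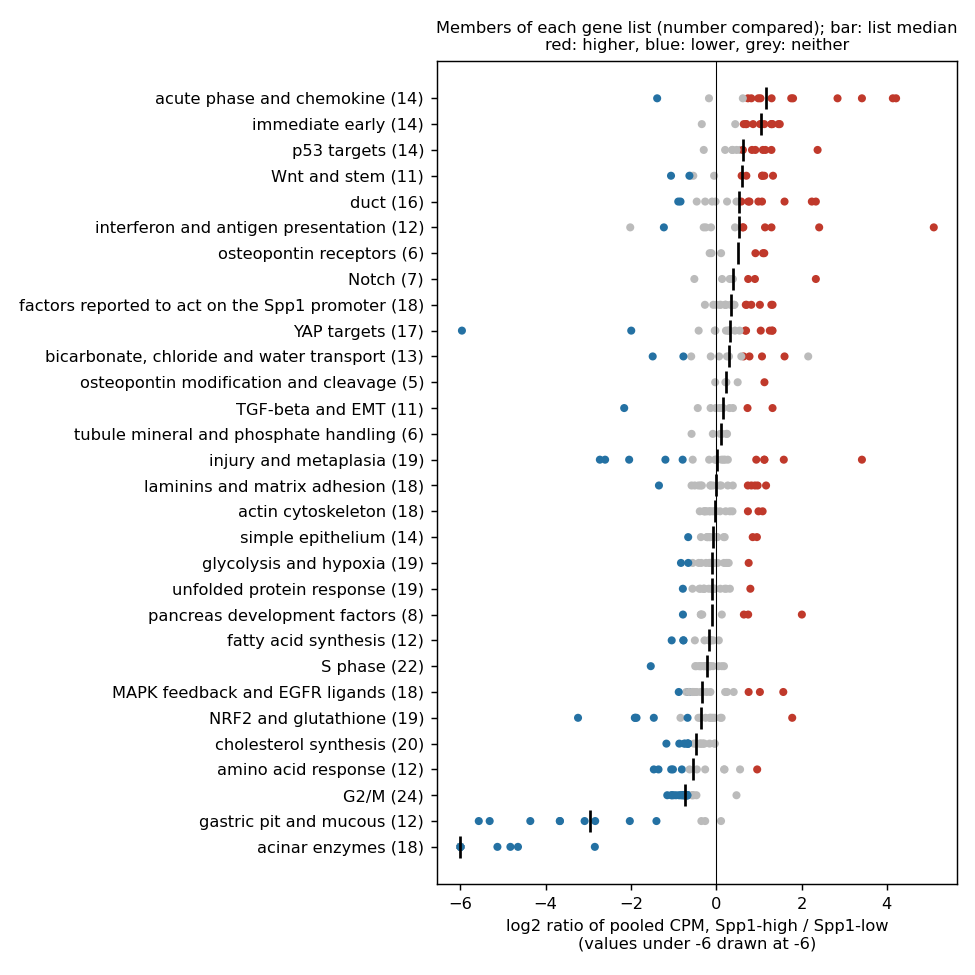
Log2 ratio of pooled CPM, Spp1-high over Spp1-low (horizontal axis), for each compared member of 30 gene lists (rows, number of members in brackets), ordered by the list median (black bar). Red members are higher, blue lower and grey neither by the fold rule; acute-phase and immediate early genes lie mostly to the right, G2/M and gastric genes to the left, and values under -6, most of them enzymes, are drawn at -6.

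Transcripts of dividing cells were lower by pooled counts, to a degree that varied with the setting. Of 24 genes of the G2 and M phases, 19 were lower and none was higher, with a median log2 ratio of -0.74. The list held 1677 CPM (1644 to 1711) in Spp1-high cells and 2640 CPM (2602 to 2678) in Spp1-low cells, a ratio of 0.635. The medians over cells were 446 and 1100 CPM, and the Spp1-high cell was higher in 43.4% of pairs. Ranked within title numbers, the ratio of the list was 0.761 up to 96 and 0.757 from 97. Ranked within 3 depth classes it was 0.848. It was 0.711 with equal weight per cell, 0.712 with cells thinned to 40000 UMIs and 0.689 with fibroblast-rich cells kept in. Ranked within 3 classes of G2/M level, which evens that level out by construction, it was 0.934. All of these values fell short of the 1.5-fold mark, and the other settings tried passed it. The highest single values were 8669 CPM in Spp1-high cells and 7610 CPM in Spp1-low cells, so dividing cells occurred in both groups. Top2a, topoisomerase II alpha, had medians of 22.2 and 92.8 CPM in Spp1-high and Spp1-low cells and a ratio of 0.545 (0.507 to 0.584). Ube2c, a ubiquitin-conjugating enzyme of mitosis, and Plk1, a mitotic kinase, stood at 0.482 and 0.499. Of 22 S phase genes only Rrm2, a subunit of ribonucleotide reductase, was lower, at 0.345, and the replicative helicase genes Mcm2 to Mcm7 were all neither. With the 77 cells between the ends split by Spp1 into 38 lower-middle and 39 upper-middle cells, the G2/M medians from Spp1-low to Spp1-high were 1100, 2633, 1454 and 446 CPM, so the peak lay in the lower-middle cells.

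Growth-control genes differed in more than 1 direction. Of 17 targets of the YAP coactivator 6 were higher and 2 lower. Ccn1 and Ccn2, matricellular proteins, were 2.39- and 2.48-fold higher, and Ankrd1, a cardiac ankyrin repeat protein, 1.62-fold higher. Of 14 targets of p53 none was lower and 7 were higher, among them Gdf15, a stress cytokine, at 5.19. Cdkn1a and Mdm2, its best known targets, stood at 1.15 and 0.816 and were neither. Among Notch genes Sox9, Hes1 and Dll1 were higher, the last 2 at 1.68 and 1.87, of 7 compared. Sox4, a progenitor factor, was 2.51-fold higher.

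Some biosynthetic genes were lower, but not every list was clearly lower as a whole. Of 20 cholesterol synthesis genes 8 were lower and none was higher, against 8.57% of all genes compared that were lower. Their median log2 ratio was -0.47. Insig1, a sterol sensor, stood at 0.444, but at 1.49 in cells numbered up to 96. Of 12 amino acid response genes 5 were lower, including Asns, asparagine synthetase, at 0.480 and Mthfd2, a mitochondrial folate enzyme, at 0.391. Ddit4, a stress-induced inhibitor of mTOR, was higher at 1.94. The amino acid response list stood at a ratio of 0.899, with the Spp1-high cell higher in 49.4% of pairs. Its median over cells was 1125 CPM in Spp1-high and 1061 CPM in Spp1-low cells. Gsta2 and Gsr, of glutathione conjugation and reduction, stood at 0.266 and 0.627. Glycolytic and unfolded protein response genes were mostly neither, at 16 of 19 and 17 of 19. So were most genes compared, of which 18.1% passed in either direction. Of 12 fatty acid synthesis genes 3 were lower, against 8.57% of all genes compared, among them Scd1, a stearoyl-CoA desaturase, at 0.484. The fatty acid synthesis list stood at a ratio of 0.842, and at 1.117 at the highest in any setting tried.

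Counts in further lists are read against the 18.1% of all genes compared that passed in either direction, and a share near it is no result about the list. Of 18 laminin and matrix adhesion genes 5 were higher and 1 lower, among them the basement membrane genes Lamb1 at 2.25 and Col4a1 at 1.87 and, lower, Nid1 at 0.394. Of 18 actin cytoskeleton genes 3 were higher and none was lower, and of 11 Wnt and stem cell genes 6 were higher and 2 lower. Of 11 TGF-beta genes 2 were higher, including Tgfb2, a ligand, at 2.49, and 1 was lower. Of 18 MAPK feedback genes and EGFR ligands 3 were higher and 2 lower. None of 6 mineral and phosphate handling genes passed the threshold.

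Transcripts of other cell types moved with Spp1 in some cases. Of 15 fibroblast and stellate genes 3 passed the level filter, and all 3 were higher, against 9.57% of all genes compared. They were Fn1 at 2.27, Sparc at 4.88 and Rgs5 at 44.1. A gene may have passed the filter only through the group where it was high, so the count is no result about the list. Acinar172, the cell with the most Spp1, held 78.9% of the Spp1-high UMIs of Rgs5, and the ratio without the highest cells was 14.7. The summed list ranged from 0 to 2813 CPM in Spp1-high cells and from 0 to 3043 CPM in Spp1-low cells, against a lowest value of 8853 CPM in the fibroblast-rich cells. Of the listed genes, only Col1a2, Col3a1, Dcn, Lum and Pdgfrb had no UMI in any Spp1-high cell. The other members had at least 1 UMI there. In Spp1-low cells Dcn, Thy1 and Postn had none. The summed fibroblast list stood at a ratio of 2.91, with medians of 203 CPM in Spp1-high and 30.3 CPM in Spp1-low cells. It was higher in the Spp1-high cell of 76.99% of pairs. The immune list ranged from 196 to 2275 CPM in Spp1-high and from 0 to 1253 CPM in Spp1-low cells, nearly all of it Cd14. The Schwann cell list was represented by S100b, a calcium-binding protein, at 6.11, and at 10.2 without the highest cells, of which Acinar166 held 48.3% of the Spp1-low UMIs. The endothelial list held 7.84 CPM in Spp1-high cells and 27.1 CPM in Spp1-low cells, and only 1 of its 9 genes passed the level filter. Kdr was at 0 in both groups, Tie1 in Spp1-high cells and Vwf in Spp1-low cells. Genes of unrelated tissues served as a background and held 111.6 CPM in Spp1-high and 117.6 CPM in Spp1-low cells. The part of other cells in the results was not tested.

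The cells between the ends, which the comparison did not use, gave a second look at the same genes. This look is not independent, since the ranking was the same and the level filter used these cells too. The title numbers were again uneven, since 25 of 39 upper-middle and 17 of 38 lower-middle cells were numbered up to 96. Between upper-middle and lower-middle cells, 766 of the 984 genes higher in Spp1-high cells were higher (77.8%), and 310 of the 881 lower genes were (35.2%), against 54.5% of all genes compared. The median log2 ratios of upper-middle over lower-middle cells were 0.18 for the higher genes and -0.14 for the lower ones, so the differences inside the middle were small.

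The genes differed in where along the ranking they changed. From Spp1-low through lower-middle and upper-middle to Spp1-high cells the median of Lcn2 was 37.02, 960, 1217 and 2864 CPM. Cp had medians of 14.5, 217, 678 and 1967 CPM and C3 had 19.5, 137.2, 298 and 776 CPM, a climb at every step. Clu had 4846, 5926, 6346 and 12122.5 CPM and Trf had 0, 23.1, 26.9 and 225 CPM, so the Spp1-high cells stood apart from the rest. Among the lower genes, Msln had 713, 204, 210 and 134.9 CPM, Sprr1a had 938, 139.9, 102.5 and 117.4 CPM, and Tff1 had 553, 177.01, 201 and 174.4 CPM. In these the Spp1-low cells stood apart. Krt7 descended through all 4, at 4605, 3956, 2783 and 2520 CPM.

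**Figure D5:**
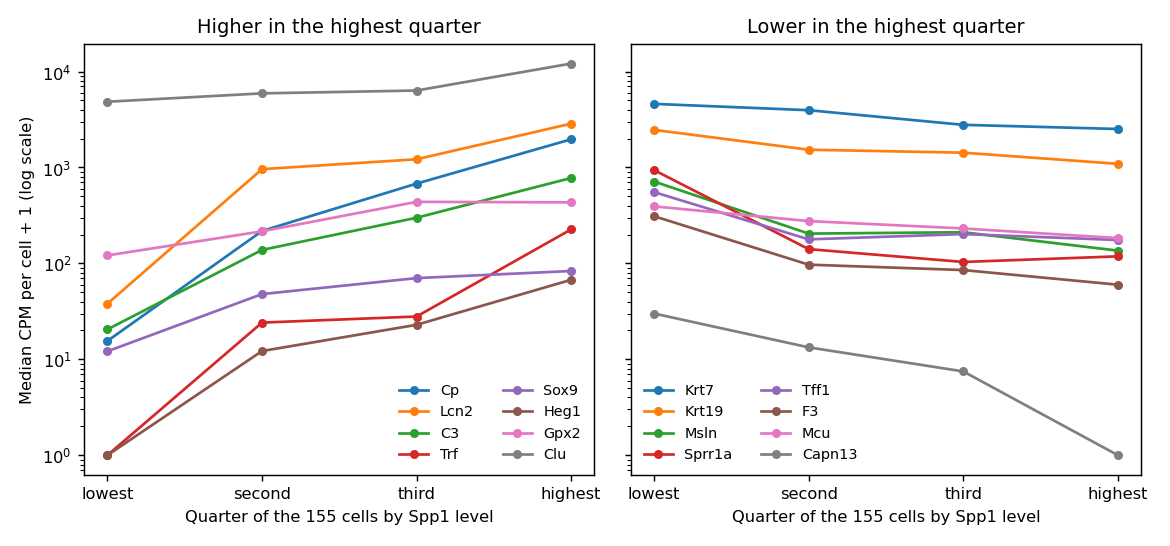
Median level per cell (vertical axis, CPM plus 1, log scale) in 4 groups of the cells kept by Spp1 level (horizontal axis, lowest to highest), for 8 genes higher (left) and 8 lower (right) in Spp1-high cells. Cp and C3 climb throughout, Clu and Trf step up at the Spp1-high group, and Msln, Sprr1a and Tff1 step down after the Spp1-low group.

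Within the ranges of title numbers, 1151 genes were higher and 727 lower in the 20 highest against the 20 lowest of 77 cells numbered up to 96. The matching numbers were 976 and 1160 among the 78 cells from 97. Of the higher genes 513 were shared, which is 44.6% of the first set and 52.6% of the second, and 48 of the first set were lower in the second. Of the lower genes 348 were shared, 47.9% of the first and 30% of the second.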

How the data were processed

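RNA of 179 single cells was measured by Smart-seq3. The authors deposited raw UMI counts and read counts per cell for 32100 Ensembl gene identifiers, with no normalization. Per the submitters' processing notes, STAR, featureCounts and the builds GRCm38 and mm10 were used; no version is given. The collapsing of UMIs and the use of strand are not stated, so overlapping genes cannot be told apart.

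Cells with at least 40000 UMIs were kept (161), without Acinar5, Acinar6, Acinar44, Acinar105, Acinar182 and Acinar188, which left 155 ranked by Spp1 CPM. No doublet caller was run, since each sample is 1 cell per the labels. UMIs were pooled per group as CPM with exact Poisson intervals. Genes with at least 10 CPM over the cells kept were compared. A gene was called at a pooled ratio of at least 1.5, or at most its inverse, if it stayed so without the highest cell of each group. Tied pairs of cells were shared equally between the groups. Tested on simulated counts, the calling step recovered most of the genes changed and also called some of the genes left unchanged, so a call alone does not show a difference. Spearman correlations are descriptions.

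The genes named are the 15 highest and the 15 lowest called genes with at least 20 CPM by the ratio without the highest cells, the 5 most and the 5 least correlated with Spp1, both leaving out mitochondrial, ribosomal protein, Gm and Rik genes, and of each list the called members and the 3 most abundant; not all are printed, and some results are not reported here. Members and lists were chosen with earlier results of these data known. Other settings covered larger and smaller groups of cells, other depth and level filters, equal weight per cell, cells thinned to 40000 UMIs, reads in place of UMIs, other totals, scran size factors, other folds, the left-out cells kept in, enzyme-rich, gastric-rich or low-ribosomal cells left out (the last 2 added after seeing the data), and ranking within title numbers, depth or G2/M level. Size factors came from scran 1.30.0 in R 4.3.3. Tables were handled by pandas 2.3.3 and numpy 2.4.6, intervals by scipy 1.17.1 and plots by matplotlib 3.10.9, under Python 3.11.15.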

Additional observations from a re-analysis of the deposited data

How the results depend on the processing

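The counts of genes past the fold, 984 higher and 881 lower, stayed within 1.5 times of these values in most other settings. They moved further with the 16 highest and 16 lowest cells (1671 higher and 1331 lower), with no filter on low values (4333 and 5040), with at least 50 CPM (347 and 311) and with a 2-fold threshold (404 and 398). The share of calls that were higher was 52.8% and ranged from 45.7% to 61.3%. A stricter level or fold narrows what can be called by construction, and no level filter widens it. For the smaller groups of cells the cause was not tested. Of 37 list ratios, 24 kept their direction in every setting tried, and of the gene ratios tried 11 did not. The size of many high ratios moved widely, as for Wfdc18 (11.8 to 597.4), Trf (5.553 to 473.3), Cp (6.327 to 140.2), Ifitm3 (6.707 to 120.5), Lcn2 (4.853 to 79.69), Heg1 (6.945 to 79.14), Ltf (6.025 to 57.27) and C3 (7.148 to 50.25), all higher throughout. With the cells under 5% ribosomal left out and the rest ranked again, the counts were 1021 higher and 778 lower. In that setting Wfdc18 stood at 14.93, Ifitm3 at 7.263, Ltf at 6.876, Cp at 7.759, Trf at 5.929, Lcn2 at 6.246 and Sox9 at 3.333. How much of these changes came from the cells removed and how much from the new ranking was not tested.

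Among the lists and genes followed through the settings, reversed values were few. Not every gene named above was followed in this way. Ccl20, which was not, went in the other direction within both ranges of title numbers, as given above. With fibroblast-rich cells kept in, the endothelial list stood at 1.195. With gastric-rich cells left out, Gkn1 stood at 1.224 and Clca1 at 1.56. In title numbers up to 96, Scgb3a1 stood at 2.917, Muc5ac at 2.78, Insig1 at 1.486 and Nqo1 at 4.261, and from 97 Itgav stood at 0.9529. Muc5ac was also reversed with the 52 highest and 52 lowest cells (1.189), at least 100000 UMIs (2.312), scran size factors (1.314) and ranking within 3 depth classes (1.062). Nqo1 was reversed with at least 100000 UMIs (1.213) and scran size factors (1.018). The cause was not tested.

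No paired analysis was possible because all cells form 1 group and no animal or culture is named. Depth limits low genes most, since 10 CPM is between 1 and 2 UMIs in a cell of median depth.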
